A study of Mus musculus with 31 samples.

Results

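The *Ifit* genes encode interferon-induced proteins with tetratricopeptide repeats. The 5 family members *Ifit1*, *Ifit2*, *Ifit3*, *Ifit3b* and *Ifit1bl1* were selected by gene symbol in the microglial count table and by the same Ensembl identifier in the hippocampal count table. They are 5 of 54532 gene rows in the first table and 5 of 48795 in the second. All 5 passed the filter on low counts in both experiments, in which 13675 and 16453 genes were tested. A sixth annotated gene of the cluster, *Ifit1bl2*, is a near copy that was not chosen as a member, and its values are given beside those of the family.

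Bulk RNA sequencing was performed on 31 mouse libraries. Primary microglia were grown from the brains of *Cgas+/+* or *Cgas-/-* pups at postnatal day 1 to 3, expanded in mixed glial cultures with GM-CSF and shaken off. They received vehicle, 0N4R human tau fibrils at 2 µg/ml or herring testis DNA (HT-DNA), a ligand of cGAS, at 1 µg/ml, and RNA was collected after 6 h of stimulation, with 3 libraries in each of the 6 groups. *Cgas-/-* stands for the label *Cgas* KO, and the knockout was not restricted to microglia. The second experiment used bulk hippocampi of mice aged 8 to 9 months, of which 7 were non-transgenic (Ntg; 3 female and 4 male) and 6 carried the *P301S* tau transgene (3 female and 3 male). In the *P301S* line, also called PS19, mutant human tau is driven by the prion protein promoter. The labels of the hippocampal samples name the *P301S* genotype and give no *Cgas* genotype. The study describes its microglial samples as biologically independent, and the labels do not say whether those of a group came from separate cultures.

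IFIT proteins are induced by type I interferon, by way of the receptor subunits IFNAR1 and IFNAR2, the kinases JAK1 and TYK2, and a transcription factor complex that binds interferon-sensitive response elements (ISREs) in promoters. They can also be induced directly by the interferon response factors IRF3 and IRF7, which act downstream of cytosolic nucleic acid sensors such as cGAS and its adaptor STING. IFIT1 binds the 5′ end of RNA that lacks methylation of the first transcribed nucleotide and blocks its translation, IFIT2 and IFIT3 assemble with related IFIT proteins, and IFIT1 and IFIT2 bind the translation initiation factor eIF3.

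The 6 *Ifit* genes lay next to each other on chromosome 19. In the GRCm38 annotation the cluster spanned chr19:34550694-34650009, a stretch of 99.3 kb. *Ifit2* (ENSMUSG00000045932, chr19:34550694-34576419, plus strand) came first, followed by *Ifit3* (ENSMUSG00000074896, chr19:34583531-34588731, plus strand) and *Ifit1bl1* (ENSMUSG00000079339, chr19:34592891-34601956, minus strand). *Ifit3b* (ENSMUSG00000062488, chr19:34607970-34613401, plus strand), *Ifit1bl2* (ENSMUSG00000067297, chr19:34617049-34640743, minus strand) and *Ifit1* (ENSMUSG00000034459, chr19:34640871-34650009, plus strand) completed it. No exon of a member overlapped an exon of another annotated gene. *Ifit3* and *Ifit3b* transcripts were 98.0% identical over 1697 aligned bases, and 51.24% of the 50-base words of *Ifit3* also occurred in *Ifit3b*. Reads of this pair may therefore have been divided between the copies or discarded at counting, and the separate values of *Ifit3* and *Ifit3b* are uncertain to that extent. *Ifit1bl1* and *Ifit1bl2* transcripts were 90.5% identical, with 6.36% of the 50-base words of *Ifit1bl1* shared, whereas *Ifit1* and *Ifit1bl1* were 71.5% identical.

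RefSeq promoter sequences (GRCm38.p6; 250 bases before to 50 bases after the annotated start) were available for all 6 *Ifit* genes and are shown for the 5 members because the members moved together in cultured microglia. They were searched on both strands for the core of the ISRE, GAAA followed by any 2 bases and GAAA, which reads TTTC, any 2 bases and TTTC on the other strand. Capitals mark each match, and each sequence is written 5′ to 3′ on the strand of its gene. The windows shown are chr19:34640639-34640938 (plus strand) for *Ifit1*, chr19:34550444-34550743 (plus) for *Ifit2*, chr19:34583279-34583578 (plus) for *Ifit3*, chr19:34607707-34608006 (plus) for *Ifit3b* and chr19:34601919-34602218 (minus) for *Ifit1bl1*.
Ifit1: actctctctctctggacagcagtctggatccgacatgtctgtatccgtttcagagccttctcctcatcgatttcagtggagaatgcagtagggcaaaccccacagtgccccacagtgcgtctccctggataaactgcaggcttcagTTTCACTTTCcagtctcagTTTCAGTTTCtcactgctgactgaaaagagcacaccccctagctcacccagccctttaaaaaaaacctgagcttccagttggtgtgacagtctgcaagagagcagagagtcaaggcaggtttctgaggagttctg
Ifit2: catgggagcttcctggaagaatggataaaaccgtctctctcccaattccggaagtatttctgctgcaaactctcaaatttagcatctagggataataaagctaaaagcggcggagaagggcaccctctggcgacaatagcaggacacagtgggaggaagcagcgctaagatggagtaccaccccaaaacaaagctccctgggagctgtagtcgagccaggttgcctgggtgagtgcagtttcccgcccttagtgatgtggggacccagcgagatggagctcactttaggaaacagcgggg
Ifit3: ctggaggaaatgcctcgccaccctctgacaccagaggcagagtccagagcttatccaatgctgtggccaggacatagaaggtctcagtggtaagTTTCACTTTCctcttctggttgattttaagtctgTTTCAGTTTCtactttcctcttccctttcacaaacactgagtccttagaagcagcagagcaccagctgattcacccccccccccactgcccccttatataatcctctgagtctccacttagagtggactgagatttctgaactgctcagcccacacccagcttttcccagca
Ifit3b: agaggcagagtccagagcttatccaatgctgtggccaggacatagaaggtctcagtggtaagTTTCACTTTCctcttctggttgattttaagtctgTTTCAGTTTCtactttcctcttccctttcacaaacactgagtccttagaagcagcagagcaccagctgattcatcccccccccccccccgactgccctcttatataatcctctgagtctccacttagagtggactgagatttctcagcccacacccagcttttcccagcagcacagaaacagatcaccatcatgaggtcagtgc
Ifit1bl1: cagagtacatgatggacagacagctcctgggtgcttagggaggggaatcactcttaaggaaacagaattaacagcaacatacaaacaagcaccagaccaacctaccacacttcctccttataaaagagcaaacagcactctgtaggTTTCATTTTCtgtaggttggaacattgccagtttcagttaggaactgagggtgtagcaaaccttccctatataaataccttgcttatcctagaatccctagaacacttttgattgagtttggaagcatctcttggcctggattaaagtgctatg

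*Ifit1*, *Ifit3* and *Ifit3b* each held 2 matches. Their first bases lay 104 and 85 bases before the start of *Ifit1*, 156 and 122 bases before that of *Ifit3*, and 188 and 154 bases before that of *Ifit3b*. The same pair of words, TTTCACTTTC and TTTCAGTTTC, occurred in all 3 of these promoters. *Ifit1bl1* had 1 match, TTTCATTTTC, at 104 bases before the start shown and 1 in a second annotated promoter, at 23 bases before the start. Neither of the annotated *Ifit2* promoters held these letters. Of 32851 RefSeq promoters of the same length, 1131 (3.44%) held at least 1 match and 74 (0.225%) held 2 or more. A match describes the letters in a window and does not show that a factor binds there.

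The libraries held 17037459 to 25174764 counts in microglia and 25953296 to 35779977 in hippocampi. *Cgas*, the deleted gene, stood at 23.2 ± 4.21 normalized CPM (counts scaled to a common library total; mean ± SD, n = 3) in *Cgas+/+* and 4.93 ± 0.748 in *Cgas-/-* microglia with vehicle, and whether the remaining reads fall within the deleted part is not given in the sources used here. The summed level of 4 myeloid genes was 1943 to 2329 CPM over all microglial libraries. The homeostatic microglial gene *Siglech* had 0 counts in all 6 vehicle libraries and at most 5 counts in any treated library. The summed level of 7 homeostatic microglial genes was 3207 to 3313 CPM in *Cgas+/+* and 2043 to 2161 CPM in *Cgas-/-* vehicle libraries. The summed levels of markers of other cells differed between the vehicle groups, with 87.2 to 98.3 CPM in *Cgas+/+* and 20.6 to 24.8 CPM in *Cgas-/-* microglia for the endothelial list, 84.4 to 95.2 and 51.6 to 54.5 CPM for the oligodendrocyte list, 4.67 to 5.89 and 1.14 to 2.51 CPM for the astrocyte list, and 2.48 to 4.16 and 0.0521 to 0.220 CPM for the fibroblast list. The endothelial sum was 276 to 279 CPM in HT-DNA-treated *Cgas+/+* cells. It was almost entirely 1 gene, *Flt1*, at 273 to 277 CPM with HT-DNA and 86.0 to 97.4 CPM with vehicle in *Cgas+/+* cells, whereas *Cdh5*, *Pecam1* and *Cldn5* were at most 2.08, 0.598 and 0.109 CPM with HT-DNA. Of the oligodendrocyte sums, *Mbp* made up 66.6 to 72.5 CPM in *Cgas+/+* and 45.5 to 46.7 CPM in *Cgas-/-* vehicle libraries. Neuronal and neutrophil or monocyte genes summed to at most 2.02 and 7.65 CPM in any microglial library, and T cell genes to at most 0.109 CPM. The part of these cells in the differences below was not tested.

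All *Ifit* members were expressed in *Cgas+/+* microglia without a stimulus. *Ifit1*, the cap-binding member, measured 375 CPM, 139.8 CPM and 259 CPM in vehicle replicates 1, 2 and 3. With tau it measured 912 CPM, 768 CPM and 929 CPM, and with HT-DNA 1299.6 CPM, 1345 CPM and 1297 CPM. The 3 groups did not overlap, and vehicle replicate 2 had the lowest level and replicate 1 the highest of its group.

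*Ifit2* followed the same order. Its levels were 949.9, 386 and 650.0 CPM with vehicle, 2938, 2409 and 2991 CPM with tau, and 5232, 5617 and 5468 CPM with HT-DNA. The closely related pair showed it too. *Ifit3*, whose human counterpart binds and stabilizes IFIT1, went from 582, 247 and 389 CPM with vehicle to 1302, 1023 and 1283 CPM with tau and 2524, 2762 and 2739.7 CPM with HT-DNA. *Ifit3b* gave 88.6, 32.9 and 60.01 CPM, 216, 160.2 and 209.6 CPM, and 459.7, 446 and 518 CPM in the same 3 groups. *Ifit1bl1*, an *Ifit1*-like gene whose function is less well described, had 34.7, 9.56 and 22.9 CPM with vehicle, 103, 94.9 and 111 CPM with tau, and 319, 346 and 345 CPM with HT-DNA. For each member, vehicle replicate 1 was the highest and replicate 2 the lowest of the vehicle libraries, and no library of any of the 3 groups reached the range of another.

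**Figure D1:**
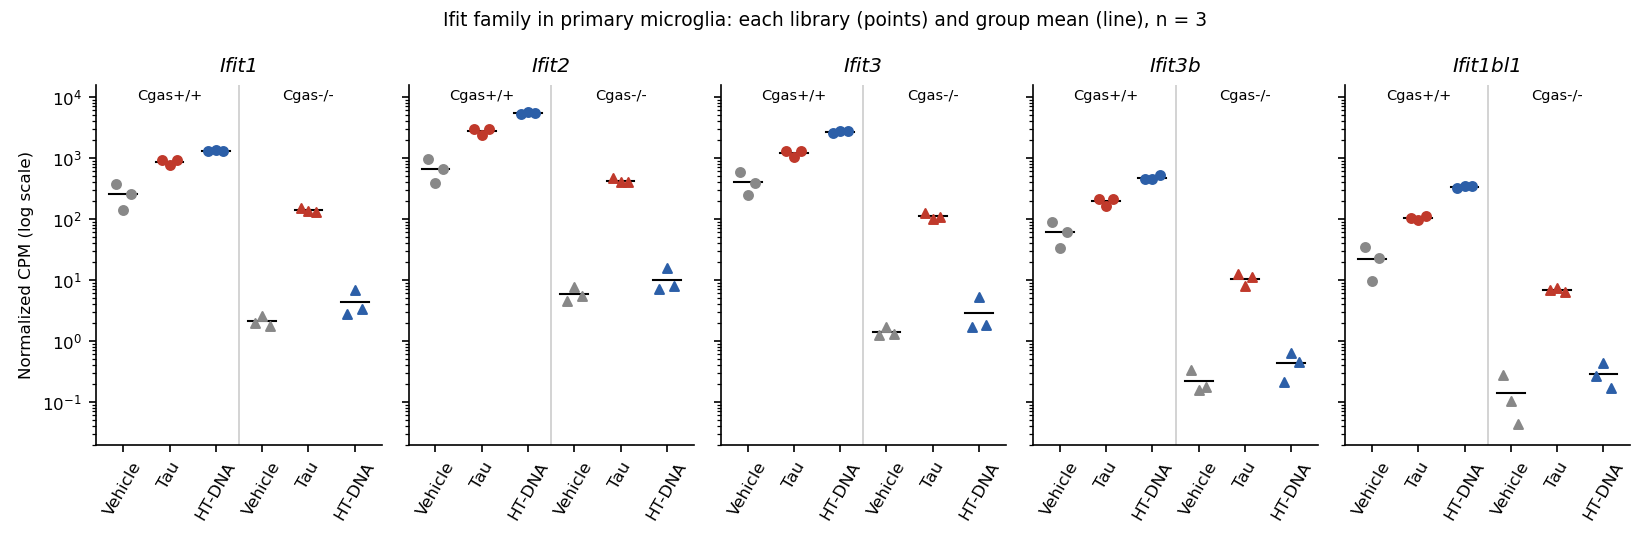
Normalized CPM (log scale) of the 5 *Ifit* members in each microglial library (points) with the group mean (line), n = 3 per group, for vehicle, tau and HT-DNA in *Cgas+/+* and *Cgas-/-* cells. Each member follows the same order of group means, from HT-DNA-treated *Cgas+/+* cells at the top to vehicle-treated *Cgas-/-* cells at the bottom, and *Ifit1* spans 1.76 to 1345 CPM.

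Tau raised all 5 members in *Cgas+/+* microglia, against 2.89% of all tested genes called higher by an adjusted p below 0.05 together with a log2 fold change above 1. The log2 fold change was 1.75 for *Ifit1* (SE 0.18, adjusted p = 1.06e-08, edgeR quasi-likelihood test with Benjamini-Hochberg adjustment over all tested genes), a 3.37-fold increase. *Ifit1bl1* rose most, by 2.20 (SE 0.19, adjusted p = 1.68e-10), and *Ifit3* least, by 1.57 (SE 0.18, adjusted p = 5.00e-08). The median over the members was 1.75, and that over all tested genes was -0.010. Groups that did not overlap in this direction were seen for 21.7% of all tested genes. *Ifit1bl2*, the low-count near copy, rose by 1.55 (SE 0.36, adjusted p = 0.00132).

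HT-DNA gave larger increases for the same 5 members, with 5.29% of all tested genes called higher and 26.0% higher with no overlap. The log2 fold changes over vehicle were 2.35 (SE 0.19) for *Ifit1*, 2.72 (SE 0.19) for *Ifit3*, 2.97 (SE 0.18) for *Ifit3b*, 3.04 (SE 0.20) for *Ifit2* and 3.92 (SE 0.18) for *Ifit1bl1*, corresponding to increases of 5.09-fold to 15.1-fold. The adjusted p-values by the edgeR quasi-likelihood test lay between 2.85e-16 and 1.96e-11. Both treatments were compared with the same vehicle libraries. Compared directly with HT-DNA, tau left every member lower, at 66.2% of the HT-DNA level for *Ifit1*, 51.1% for *Ifit2*, 44.9% for *Ifit3*, 41.1% for *Ifit3b* and 30.5% for *Ifit1bl1*. *Ifit3*, *Ifit3b* and *Ifit1bl1* passed both thresholds in that comparison, in which 1.49% of tested genes were called lower and 22.9% were lower with no overlap, with log2 differences of -1.15, -1.28 and -1.71. *Ifit1* (-0.60, adjusted p = 0.00956, edgeR) and *Ifit2* (-0.97, adjusted p = 1.37e-04) had adjusted p-values under 0.05 but log2 differences within 1. *Ifit2* passed both thresholds without tau replicate 1 (-1.04) or 3 (-1.02). The doses are given by mass, and the agents differ in kind, so these values do not compare potency.

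The unstimulated level of every member was lower in *Cgas-/-* than in *Cgas+/+* microglia. *Ifit1* measured 1.95, 2.55 and 1.76 CPM in the 3 *Cgas-/-* vehicle libraries, *Ifit2* 4.52, 7.71 and 5.45 CPM, and *Ifit3* 1.23, 1.72 and 1.32 CPM. *Ifit3b* was represented by 6, 3 and 4 counts and *Ifit1bl1* by 5, 2 and 1 counts. All lay below the lowest *Cgas+/+* vehicle library. The log2 differences from *Cgas+/+* cells were -6.81 for *Ifit2* (SE 0.27), -6.95 for *Ifit1* (SE 0.30), -7.32 for *Ifit1bl1* (SE 0.56), -8.08 for *Ifit3b* (SE 0.45) and -8.15 for *Ifit3* (SE 0.31). These are decreases of 112-fold to 285-fold, with adjusted p-values from 2.22e-18 to 9.54e-12 (edgeR quasi-likelihood test). Of all tested genes, 7.35% were called lower and 30.9% were lower with no overlap, and the median log2 difference was -7.32 over the members and -0.014 over all tested genes. The family took 0.0857% to 0.209% of all counts in *Cgas+/+* vehicle libraries and 0.000875% to 0.00128% in *Cgas-/-* vehicle libraries.

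Tau still raised the family in *Cgas-/-* microglia. *Ifit1* reached 150.3, 134 and 129 CPM in the tau replicates, *Ifit2* 469, 404 and 397 CPM, and *Ifit3* 126, 100.7 and 106 CPM. *Ifit3b* reached 12.3, 8.08 and 11.03 CPM and *Ifit1bl1* 6.97, 7.46 and 6.26 CPM. Each member was above all *Cgas-/-* vehicle libraries, which was so for 17.4% of tested genes, and below all tau-treated *Cgas+/+* libraries. The log2 fold changes over *Cgas-/-* vehicle were 6.05 for *Ifit1* (SE 0.31), 6.16 for *Ifit2* (SE 0.27), 6.28 for *Ifit3* (SE 0.32), 5.55 for *Ifit3b* (SE 0.64) and 5.62 for *Ifit1bl1* (SE 0.73). These were increases of 46.9-fold to 77.8-fold, with adjusted p-values from 1.27e-16 to 7.66e-07 (edgeR), and 2.46% of all tested genes were called higher. The larger SE of *Ifit3b* and *Ifit1bl1* accompanied group totals of 13 and 8 counts in the *Cgas-/-* vehicle libraries.

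The reading of this response depended on the scale. On the log2 scale, the tau response was larger in *Cgas-/-* than in *Cgas+/+* cells for all 5 members, by 4.30 for *Ifit1*, 4.09 for *Ifit2*, 4.72 for *Ifit3*, 3.86 for *Ifit3b* and 3.42 for *Ifit1bl1* (adjusted p = 8.19e-09, 8.55e-10, 2.33e-09, 0.00253 and 0.0294, interaction term, edgeR). The interaction was called higher for 3.61% of all tested genes. That of *Ifit1bl1* rested on few counts and had adjusted p-values of 0.0586 to 0.135 without *Cgas-/-* vehicle replicate 1, 2 or 3 or *Cgas-/-* tau replicate 2. In CPM the order was the opposite. Tau added 611 CPM of *Ifit1* (SE 85.1) in *Cgas+/+* and 136 CPM (SE 6.44) in *Cgas-/-* cells. The *Cgas-/-* increment was 22.2% of the *Cgas+/+* increment for *Ifit1*, 19.7% for *Ifit2*, 13.8% for *Ifit3*, 8.39% for *Ifit1bl1* and 7.61% for *Ifit3b*.

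Tau-treated *Cgas-/-* cells reached 15.9% of the tau-treated *Cgas+/+* level for *Ifit1*, 15.2% for *Ifit2*, 9.23% for *Ifit3*, 6.70% for *Ifit1bl1* and 5.36% for *Ifit3b*. The log2 differences were -2.66 (SE 0.19), -2.71 (SE 0.20), -3.44 (SE 0.19), -3.90 (SE 0.22) and -4.22 (SE 0.21) in that order, all called lower by edgeR against 7.41% of tested genes, and 29.1% of tested genes were lower with no overlap. Against unstimulated *Cgas+/+* cells, the same libraries held 53.4% of the *Ifit1* level, 64.0% of *Ifit2*, 30.8% of *Ifit1bl1*, 27.3% of *Ifit3* and 17.3% of *Ifit3b*. For *Ifit1* and *Ifit2* these ranges overlapped, since *Cgas+/+* vehicle replicate 2 fell among or below the tau-treated *Cgas-/-* libraries. For the other members they did not.

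With HT-DNA, no *Ifit* member passed both thresholds in *Cgas-/-* microglia by edgeR with its filter on low counts or by DESeq2. *Ifit1* measured 2.76, 6.78 and 3.39 CPM in HT-DNA replicates 1, 2 and 3, *Ifit2* 7.15, 15.4 and 7.82 CPM, and *Ifit3* 1.696, 5.26 and 1.80 CPM. Replicate 2 was the highest for all 5 members, and only the *Ifit1* values lay above all 3 vehicle libraries, a pattern seen for 10.4% of tested genes. Of all genes tested by edgeR, 0.0146% were called higher. The log2 fold changes were 1.09 for *Ifit1* (95% interval 0.14 to 2.05, adjusted p = 0.322, edgeR), 0.80 for *Ifit2* (0.16 to 1.45, adjusted p = 0.271) and 1.09 for *Ifit3* (0.023 to 2.15, adjusted p = 0.390), each with an unadjusted p under 0.05. Without HT-DNA replicate 2 they were 0.58, 0.35 and 0.30. Without the filter, *Ifit1* (adjusted p = 8.25e-11, edgeR) and *Ifit3* (adjusted p = 5.21e-07) were called, as were 0.0698% of 28651 genes, but the SE of that fit (0.119 for *Ifit1* and 0.131 for *Ifit3*) lay below the SE that counting alone gives (0.154 and 0.186). In a fit of only the compared groups *Ifit1* was called (adjusted p = 0.0350, edgeR). *Ifit3b* (1.05, interval -1.74 to 3.85) and *Ifit1bl1* (1.11, interval -2.17 to 4.38) rested on at most 16 and 11 counts per library. Their SEs in the filtered fit were 1.36 and 1.60, against 0.48 and 0.60 from counting alone. Both intervals span 0, so this fit could not tell a change of this size from none. The HT-DNA level in *Cgas-/-* cells was 0.0864% to 0.328% of that in *Cgas+/+* cells, and all 5 members were called lower with no overlap, as against 11.8% of tested genes called and 31.8% with no overlap. The HT-DNA response differed between the genotypes for *Ifit2* (-2.24, adjusted p = 2.62e-05) and *Ifit3* (-1.63, adjusted p = 0.0364) by the interaction term, called lower for 16.6% of tested genes. The call of *Ifit3* was lost (adjusted p = 0.0615 to 0.130) when any 1 of the 3 *Cgas-/-* vehicle libraries, or *Cgas-/-* HT-DNA replicate 1 or 3, was left out. For *Ifit1* (-1.26, adjusted p = 0.0727), *Ifit3b* (-1.92, adjusted p = 0.397) and *Ifit1bl1* (-2.81, adjusted p = 0.318) it did not pass, although *Ifit1* did without *Cgas+/+* vehicle replicate 1 (-1.63, adjusted p = 0.00226) or 2 (-0.95, adjusted p = 0.0254) or *Cgas-/-* HT-DNA replicate 2 (-1.77, adjusted p = 0.0167). DESeq2 called all 5 members in this interaction, with adjusted p-values of 0.0230 for *Ifit1*, 0.0122 for *Ifit3b* and 0.00202 for *Ifit1bl1*. So did edgeR without the filter (adjusted p = 1.49e-12, 0.00335 and 0.00110), but its SEs for the members with HT-DNA in *Cgas-/-* cells lay below those of counting alone. The share of all tested genes called by these alternatives is not given here.

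**Figure D2:**
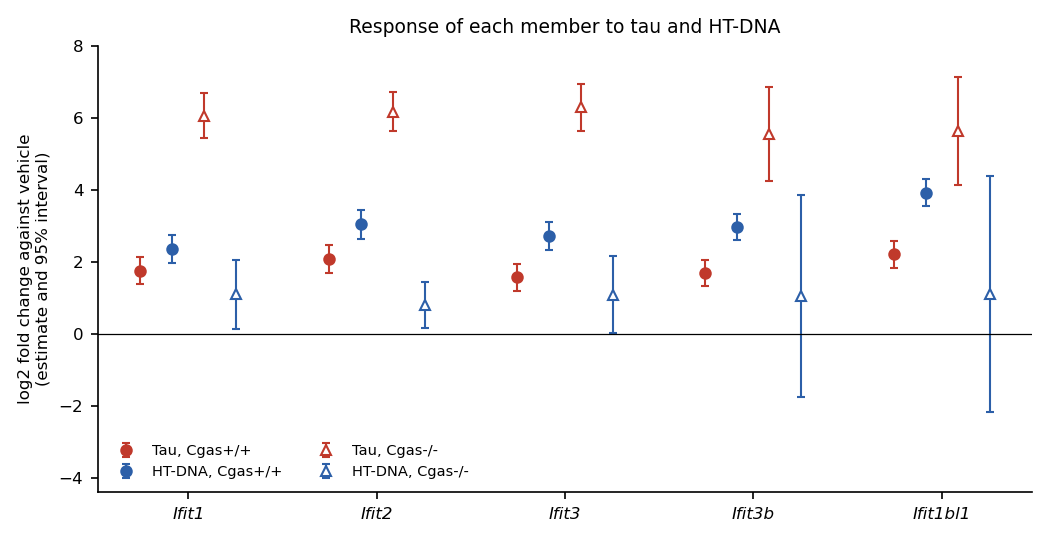
log2 fold change against vehicle of the same genotype (estimate and 95% interval, edgeR) for each *Ifit* member, with tau and HT-DNA in *Cgas+/+* and *Cgas-/-* microglia. Tau responses in *Cgas-/-* cells (5.55 to 6.28) lie above those in *Cgas+/+* cells (1.57 to 2.20), and HT-DNA responses in *Cgas-/-* cells have the widest intervals, for *Ifit3b* and *Ifit1bl1* spanning 0.

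Group means had 1 order for all 5 members, with HT-DNA-treated *Cgas+/+* cells highest, then tau and vehicle in *Cgas+/+* cells, then tau, HT-DNA and vehicle in *Cgas-/-* cells. The last 2 groups overlapped for all members except *Ifit1*. *Ifit1bl2* was counted at 30, 11 and 18 with vehicle, 61, 48 and 49 with tau and 70, 74 and 52 with HT-DNA in *Cgas+/+* cells. In *Cgas-/-* cells it had 12, 27 and 21 counts with tau but at most 3 counts in any vehicle or HT-DNA library, so no fold is given for the latter.

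Ratios between members within a library were compared between groups. Within a library, *Ifit1bl1* amounted to 8.31 ± 1.29 counts per 100 *Ifit1* counts (mean ± SD, n = 3) with vehicle, 11.9 ± 0.555 with tau and 25.6 ± 1.03 with HT-DNA in *Cgas+/+* cells, and to 5.01 ± 0.479 with tau in *Cgas-/-* cells. *Ifit2* per 100 *Ifit1* counts was 259.95 ± 13.7, 319 ± 4.71, 414 ± 10.1 and 307 ± 5.51 in the same groups. *Ifit3* per 100 *Ifit1* counts was 161 ± 14.3, 138 ± 4.79, 204 ± 8.66 and 80.5 ± 4.78, and it was also low in the other *Cgas-/-* groups, at 68.4 ± 6.14 with vehicle and 64.05 ± 12.4 with HT-DNA, on 22 to 131 counts of *Ifit3* per library. The ratios use raw counts from libraries that the labels describe as a 3′-end kit. A change of a ratio between groups can be read, but not which transcript was more abundant. In each of these 3 ratios, all 4 comparisons made between microglial groups gave an exact two-sided permutation p of 0.1 (adjusted p = 0.111 over 20 ratio comparisons), which is the smallest p that this test allows for 3 against 3 libraries, so none passed. How often ratios of other gene pairs separate these groups was not tested.

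*Ifit3b* per 100 *Ifit3* counts was 14.7 ± 1.19 with vehicle, 16.2 ± 0.471 with tau, 17.8 ± 1.42 with HT-DNA and 9.39 ± 1.21 with tau in *Cgas-/-* cells. For this near-identical pair the tau and HT-DNA libraries overlapped (exact permutation p = 0.3). A ratio of copies that share most of their sequence also depends on how shared reads were counted.

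**Figure D3:**
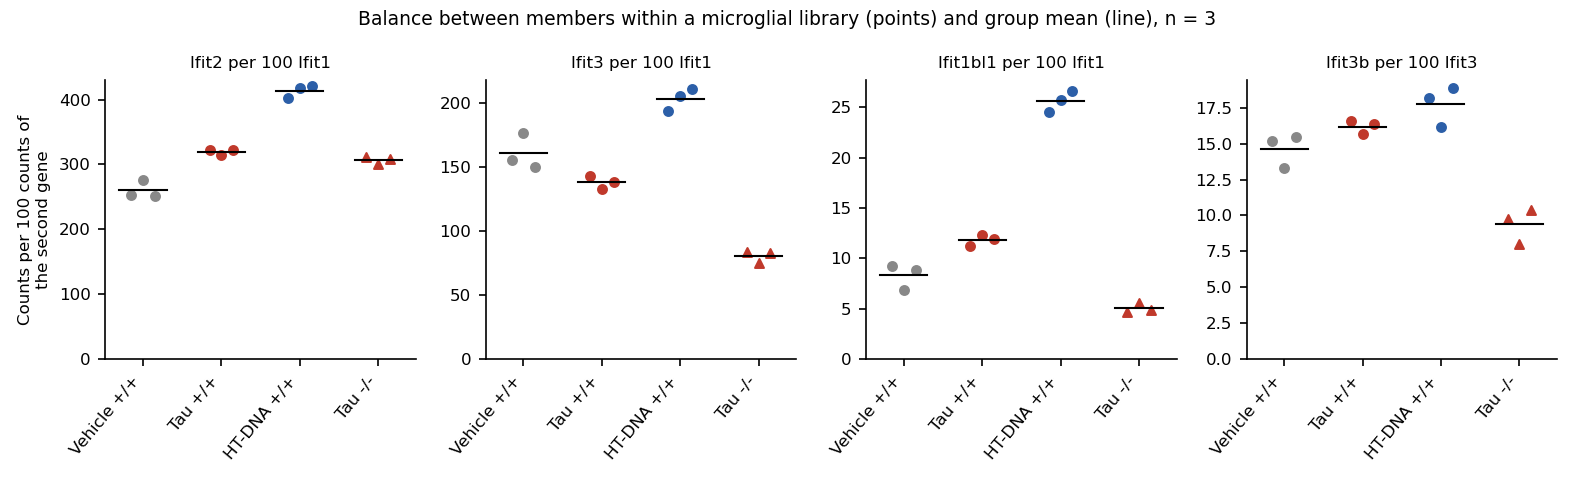
Counts of 1 member per 100 counts of another within each microglial library (points) with the group mean (line), n = 3, for vehicle, tau and HT-DNA in *Cgas+/+* and tau in *Cgas-/-* cells. *Ifit1bl1* per 100 *Ifit1* counts is 8.31 with vehicle and 25.6 with HT-DNA, and *Ifit3* per 100 *Ifit1* counts is 138 with tau in *Cgas+/+* and 80.5 with tau in *Cgas-/-* cells. The other *Cgas-/-* groups, with few counts, are not plotted.

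Of 13 genes that induce or transmit interferon signals, 3 passed both thresholds with tau in *Cgas+/+* microglia, all higher. They were *Irf7* (1.57), the kinase gene *Ikbke* (1.16) and *Stat2* (1.02). With HT-DNA the 3 were *Irf7* (2.32), *Stat2* (1.46) and *Ifnb1* (4.44), the gene of interferon beta. At an adjusted p under 0.05 (edgeR) without the fold threshold, 9 were higher with tau and 11 with HT-DNA in *Cgas+/+* cells. In *Cgas-/-* cells 9 were higher with tau, and none was lower in these comparisons. The shares of all tested genes at this looser cut are not given here. *Ifnb1* counts were 10, 0 and 3 with vehicle, 11, 1 and 2 with tau, and 71, 96 and 83 with HT-DNA, and the tau difference was not called (0.24, adjusted p = 0.872, edgeR). At 6 h, the *Ifit* increase with HT-DNA thus stood beside raised *Ifnb1* counts. With tau, the *Ifnb1* counts were too few to tell a change from none. The study reports tau-induced interferon beta protein in the medium of primary microglia, measured by ELISA at a later time.

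In *Cgas-/-* cells, tau raised 4 of the 13 genes, namely *Irf7* (4.83), *Stat2* (2.74), *Irf9* (1.46) and *Ikbke* (1.13), and with HT-DNA none was called by edgeR (3 with an unadjusted p under 0.05). *Ifnb1* was at 0 counts in 8 of the 9 *Cgas-/-* libraries and at 1 count in the other, treated with tau. With vehicle, *Irf7* (-5.32), *Stat2* (-3.58), *Cgas* (-2.22), *Irf9* (-1.54) and *Ifnb1* were lower in *Cgas-/-* than in *Cgas+/+* cells. As for the *Ifit* members, the log2 tau response was larger in *Cgas-/-* cells for *Irf7* (3.26), *Stat2* (1.72) and *Irf9* (1.21), whereas it was smaller for *Tbk1* (-0.28) and *Tyk2* (-0.22). The HT-DNA interaction was called lower for 8 of the 13 genes and higher for none, with 16.6% of tested genes called lower. The remaining genes, *Tmem173* (STING), *Irf3*, *Ifnar1*, *Ifnar2* and *Jak1*, had log2 fold changes of -0.07 to 0.27 over vehicle with either treatment in *Cgas+/+* cells.

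*Usp18*, *Isg15* and *Socs1*, which restrain interferon signaling or are conjugated to proteins in response to it, moved with the family. Tau raised *Isg15* (2.02) and *Usp18* (1.59) in *Cgas+/+* cells and all 3 in *Cgas-/-* cells (*Usp18* 5.28, *Isg15* 4.91, *Socs1* 1.60). HT-DNA raised all 3 in *Cgas+/+* cells, and in *Cgas-/-* cells none was called or had an unadjusted p under 0.05 (edgeR). Among 6 genes of RNA cap formation, none passed both thresholds by edgeR with tau or HT-DNA in either genotype. At an adjusted p under 0.05 (edgeR) but within the fold threshold, 2 were higher and 2 lower with HT-DNA in *Cgas+/+* cells. Likewise 1 was lower with tau in *Cgas+/+* cells, and 1 was higher and 1 lower with tau in *Cgas-/-* cells. In *Cgas+/+* cells, 1 with tau and 5 with HT-DNA had an unadjusted p under 0.05. In *Cgas-/-* cells 3 did with tau and 0 with HT-DNA. The 3 with the largest tau differences in *Cgas+/+* cells were *Cmtr2* (-0.32), *Cmtr1* (0.14) and *Rngtt* (0.12). None of 14 genes of eIF3 subunits passed both thresholds by edgeR with either treatment in either genotype. An unadjusted p under 0.05 was seen for 2 with tau and 8 with HT-DNA in *Cgas+/+* cells, and for 0 and 5 in *Cgas-/-* cells. With HT-DNA, 6 in *Cgas+/+* cells were lower and 1 in *Cgas-/-* cells was higher at an adjusted p under 0.05 (edgeR), within the fold threshold. Furthest from 0 with tau in *Cgas+/+* cells were *Eif3j2* (0.42), *Eif3i* (-0.13) and *Eif3l* (-0.09), where the *Ifit* median was 1.75. The HT-DNA interaction, with no minimum size, was called higher for 7 of the 14 eIF3 genes and 1 of the 6 cap genes. It was called lower for 1 cap gene, as for 16.6% of tested genes, and the share called higher is not given here. The tau interaction was called lower for 1 cap gene and for none of the eIF3 genes.

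The tested genes around the cluster differed far less between the genotypes. The nearest protein-coding neighbours were *Slc16a12*, at 18394 bp, and *Lipa*, the gene of lysosomal acid lipase, at 23220 bp. *Slc16a12* had too few counts to be tested in microglia. Of 5 neighbours on each side, 8 were tested in microglia, and their log2 differences between *Cgas-/-* and *Cgas+/+* vehicle cells ranged from -1.36 to 0.71, against -6.81 to -8.15 for the 5 members. The difference was -0.02 for *Lipa*, and the value of 0.71 was that of *Rpp30*, at 1433707 bp. Only *Kif20b*, a mitotic kinesin (-1.36), was called among them. Between the genotypes with tau, the neighbours ranged from -0.75 to 0.34 and none was called. With HT-DNA they ranged from -1.44 to 0.64, and only *Acta2* (-1.44) was called, on 3 to 17 counts in *Cgas-/-* and 18 to 27 in *Cgas+/+* libraries. Tau raised *Fas*, the death receptor gene (1.61), and *Ch25h*, which encodes cholesterol 25-hydroxylase (1.08), in *Cgas+/+* cells. HT-DNA raised *Ch25h* (1.56). In *Cgas-/-* cells tau raised *Fas* (1.53), and *Ch25h* changed by 0.63, which was within the fold threshold. The HT-DNA interaction, with no minimum size, was called lower for *Ch25h* (-1.28) and *Lipa* (-0.29), as for 16.6% of tested genes. It was called higher for *Pank1* (0.89) and *Kif20b* (1.05). The tau interaction was called for *Ch25h* alone among the neighbours (-0.45).

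**Figure D4:**
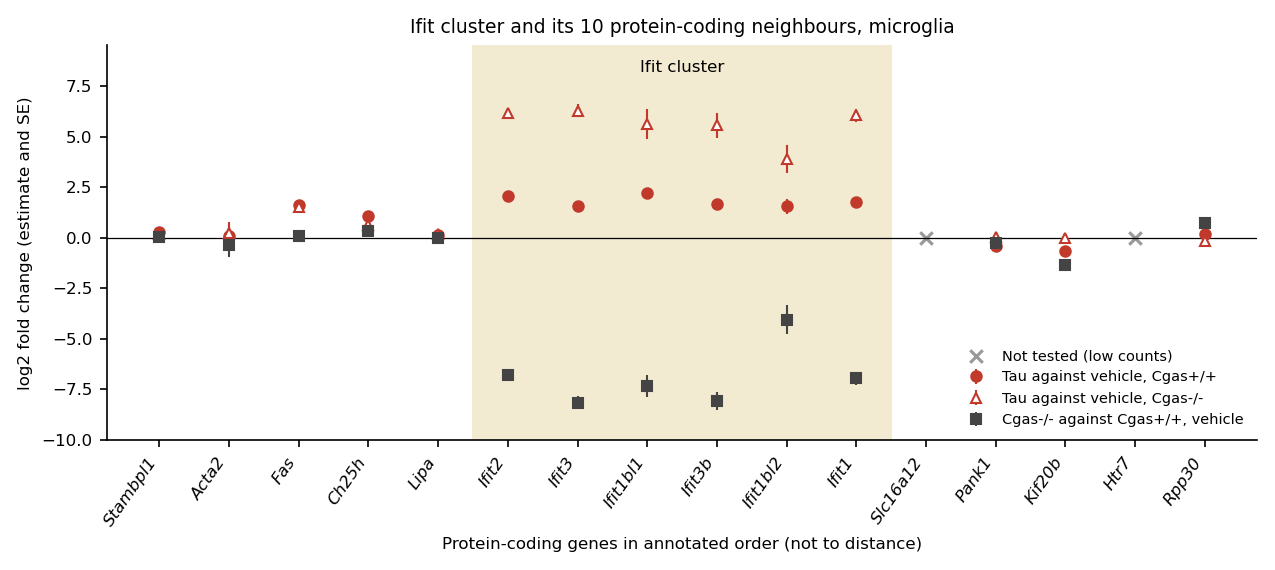
log2 fold change (estimate and SE, edgeR) of the 6 *Ifit* genes and 5 protein-coding neighbours on each side, in annotated order and not to distance, in microglia; crosses mark 2 neighbours that were not tested. The 5 members lie below -6.8 in *Cgas-/-* against *Cgas+/+* vehicle cells, whereas the 8 tested neighbours lie between -1.36 and 0.71.

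In the hippocampus, 3 of the 5 members were higher in *P301S* than in Ntg mice, where 1.32% of tested genes were called higher by an adjusted p below 0.05 together with a log2 fold change above 0.5. In bulk tissue, more or fewer cells of a type and more or less RNA per cell cannot be told apart. *Ifit1* ranged from 1.25 to 3.07 CPM in the 7 Ntg mice, with a median of 1.93 CPM. In *P301S* mice 29, 36, 43, 63, 65 and 77 it was 8.53, 8.30, 1.65, 3.49, 27.4 and 19.3 CPM. Thus 5 of 6 *P301S* mice lay above every Ntg mouse, mouse 63 by little, and mouse 43 lay within the Ntg range.

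*Ifit3* and *Ifit3b* showed the same mice high and low. *Ifit3* ranged from 3.98 to 9.45 CPM (median 5.23 CPM) in Ntg mice and was 21.2, 26.0, 4.03, 8.21, 63.5 and 37.0 CPM in *P301S* mice in the same order. *Ifit3b* ranged from 2.58 to 4.46 CPM (median 3.36 CPM) in Ntg mice and was 11.4, 15.7, 2.56, 5.47, 30.3 and 19.6 CPM in *P301S* mice. Mouse 65 was highest in *Ifit1*, *Ifit3* and *Ifit3b* and mouse 43 lowest. *Ifit2* ranged from 6.46 to 10.2 CPM (median 8.18 CPM) in Ntg mice, and mice 29, 36, 65 and 77 exceeded that range at 15.1, 13.4, 18.5 and 20.7 CPM, whereas mice 43 and 63 did not at 7.40 and 7.12 CPM.

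*Ifit1bl1* stood apart. It ranged from 3.47 to 5.32 CPM (median 4.45 CPM) in Ntg mice and from 2.27 to 5.32 CPM (median 4.12 CPM) in *P301S* mice, in which mice 65 and 77 had 4.74 and 4.04 CPM. The near copy *Ifit1bl2* was similar, at 0.684 to 1.27 CPM in Ntg and 0.429 to 1.52 CPM in *P301S* mice. Neither gene showed the spread between *P301S* mice that the other members shared.

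**Figure D5:**
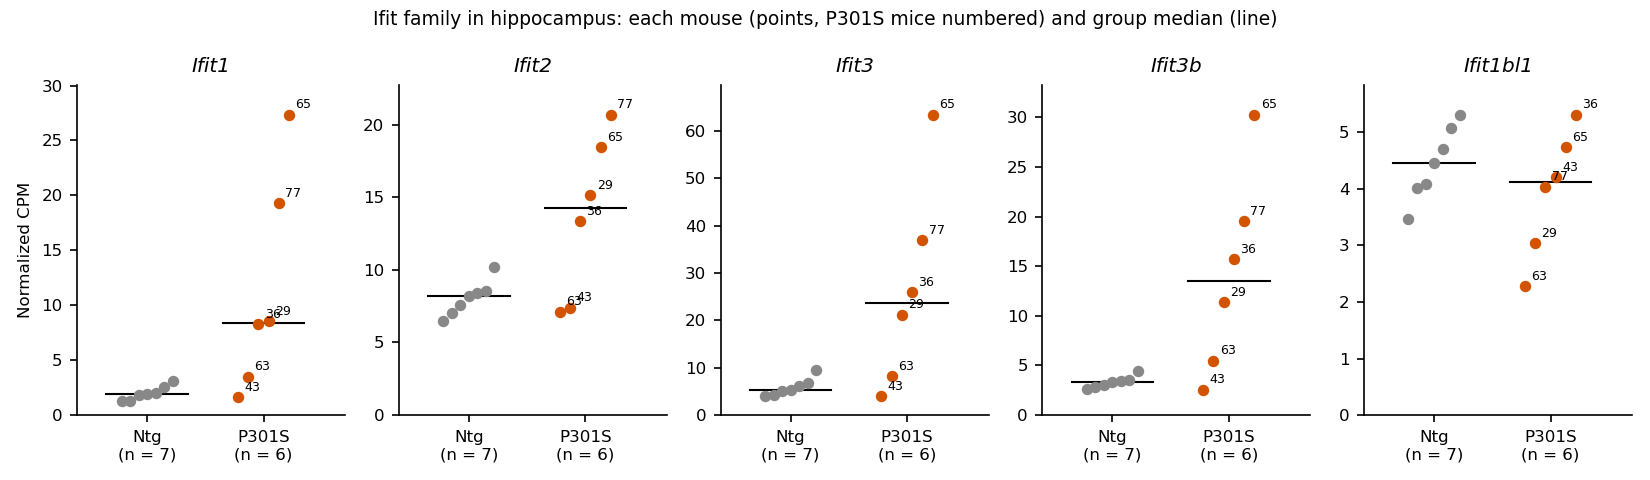
Normalized CPM of the 5 *Ifit* members in each hippocampus (points, *P301S* mice numbered) with the group median (line), for 7 Ntg and 6 *P301S* mice; each panel starts at 0. *P301S* mice 65 and 77 are the highest for *Ifit1*, *Ifit3* and *Ifit3b*, mouse 43 stays in the Ntg range for *Ifit1*, and the groups overlap for *Ifit1bl1*, with medians of 4.45 and 4.12 CPM.

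The log2 fold change was 2.52 for *Ifit1* (SE 0.51, adjusted p = 0.0310, edgeR quasi-likelihood test), a 5.72-fold difference, 2.19 for *Ifit3* (SE 0.48, adjusted p = 0.0398) and 2.09 for *Ifit3b* (SE 0.42, adjusted p = 0.0303). *Ifit2* missed the threshold at 0.76 (SE 0.23, adjusted p = 0.102). For *Ifit1bl1* the estimate was -0.18 with a 95% interval of -0.56 to 0.21 (adjusted p = 0.706), and for *Ifit1bl2* 0.07 (-0.48 to 0.62, adjusted p = 0.937). The median over the 5 members was 2.09, that over all tested genes 0.0013. Without *P301S* mouse 29, 36 or 65, or without Ntg mouse 35, 46, 61, 62, 68 or 71, no member was called, with log2 fold changes of 2.04 to 2.59 for *Ifit1*, 1.72 to 2.25 for *Ifit3* and 1.71 to 2.14 for *Ifit3b* and adjusted p-values of 0.0603 to 0.106 (edgeR), although these 3 kept an unadjusted p under 0.05. *Ifit2* was called without mouse 43 (adjusted p = 0.0228) or 63 (adjusted p = 0.0249) and by DESeq2 (adjusted p = 0.0270). No member separated the groups fully, as 0.438% of tested genes did in this direction. Exact two-sided permutation tests of the difference of mean CPM gave p = 0.00816 for *Ifit1*, 0.0350 for *Ifit2*, 0.0175 for *Ifit3*, 0.00932 for *Ifit3b* and 0.325 for *Ifit1bl1*, against a smallest possible p of 0.00117. With *Ifit1bl2* included and adjustment over these 6 genes, they were 0.0280, 0.0524, 0.0350, 0.0280 and 0.390 by the exact permutation test.

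*P301S* mice 29, 36, 65 and 77 had both more *Ifit1* and higher sums of microglial genes than mice 43 and 63. Within mice 29, 36, 65 and 77 the orders differed. Mouse 77, with 19.3 CPM of *Ifit1*, had the lowest microglial sums of these mice, and mice 29 and 36 had 8.53 and 8.30 CPM of *Ifit1*. The sum of 7 homeostatic microglial genes was 322 to 399 CPM in Ntg mice and 701, 714, 315, 361, 699.5 and 509.8 CPM in *P301S* mice 29, 36, 43, 63, 65 and 77. The sum of 4 myeloid genes was 26.0 to 32.0 CPM in Ntg mice and 120, 131, 29.2, 33.4, 135 and 60.1 CPM in the same *P301S* mice. The sum of 6 astrocyte genes was 3628 to 4411 CPM in Ntg mice and 6861, 7389, 3703, 4032, 6316 and 5704 CPM in *P301S* mice. The mice with the lowest *Ifit1* among the *P301S* group, 43 and 63, were also those with sums near the Ntg range for all 3 lists. Of the marker genes, 2 of 4 myeloid, 1 of 6 astrocyte and 0 of 7 homeostatic microglial genes were called higher by edgeR. Of the last list, 3 had an unadjusted p under 0.05. A further fit used the mean log2 CPM of the 7 homeostatic genes, and not their sum, as a covariate. In it the log2 difference of *Ifit1* was 1.29 (adjusted p = 0.206, edgeR), that of *Ifit3* 0.94 (adjusted p = 0.287) and that of *Ifit3b* 1.03 (adjusted p = 0.154). None passed, and each of the 3 had an unadjusted p under 0.05. The sum of 4 T cell genes, though low, was also higher in mice 29, 36, 65 and 77 than in mice 43 and 63. It was 0.561 to 1.11 CPM in Ntg mice and 2.38, 2.26, 0.316, 1.35, 1.93 and 1.49 CPM in *P301S* mice in the same order. Thus 5 of 6 lay above every Ntg mouse. Of these genes only *Trac* had enough counts to be tested (0.17, adjusted p = 0.852, edgeR), and *Cd3e*, *Cd3d* and *Cd8a* had at most 3, 2 and 2 counts in Ntg and 13, 8 and 16 in *P301S* mice. Neutrophil or monocyte genes summed to 0.155 to 1.09 CPM in Ntg and 0.412 to 1.39 CPM in *P301S* mice. The part of these cells in the *Ifit* difference was not tested. The covariate fit cannot tell it either, since the homeostatic sums of *P301S* mice 29, 36, 65 and 77 lay above the Ntg range. Covariate and genotype thus overlapped, and other cell types did not enter that fit. Neuronal, oligodendrocyte, endothelial and fibroblast genes gave no call by edgeR, with 1, 4, 0 and 0 of them at an unadjusted p under 0.05, and their summed ranges overlapped between the groups.

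Ratios between members were compared in the hippocampus as well, and none passed after adjustment over the 20 ratio comparisons. *Ifit1bl1* per 100 *Ifit1* counts had a median of 221 in Ntg and 49.9 in *P301S* mice, a log2 difference of -2.24 in the group means (exact permutation p = 0.00583, adjusted p = 0.0699). *Ifit2* per 100 *Ifit1* counts had medians of 424 and 169 (log2 difference -1.36, exact permutation p = 0.00699, adjusted p = 0.0699). *Ifit3* per 100 *Ifit1* counts (-0.29, exact permutation p = 0.0851) and *Ifit3b* per 100 *Ifit3* counts (-0.03, exact permutation p = 0.814) gave larger p-values. The ranges of all 4 ratios overlapped.

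Of the interferon pathway genes, 12 were tested in the hippocampus and 2 were called, *Irf7* (2.42, adjusted p = 0.0303, edgeR) and *Irf9* (1.24, adjusted p = 0.0303). *Usp18* (2.71) and *Isg15* (2.57) were called and *Socs1* (0.96, adjusted p = 0.0827) was not. *Ifnb1* had at most 1 count in any hippocampus. None of the 9 tested neighbours of the cluster was called in *P301S* mice, and 2 had an unadjusted p under 0.05 (edgeR).

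Across all libraries of an experiment, the members followed each other closely with 1 exception. Pearson's r between log2 CPM values of any pair lay between 0.983 and 0.999 over 18 microglial libraries, which share 6 group means. Over the 13 hippocampi it lay between 0.888 and 0.985 among *Ifit1*, *Ifit2*, *Ifit3* and *Ifit3b*, but between -0.0685 and 0.0829 for *Ifit1bl1* with each of the others. The genes outside the family with the pattern most like the mean log2 CPM of the 5 members were, in microglia, *Mx1* (r = 0.999), *Mx2* (0.999), *Gm4951* (0.998), *Stat2* (0.998) and *Irgm1* (0.998), of 9456 genes with a mean of at least 5 CPM. In hippocampi they were *Irgm1* (0.974), *Oasl2* (0.973), *Ifih1* (0.972), *Xaf1* (0.970) and *Gbp3* (0.963), of 11660 genes. *Mx1*, *Mx2*, *Oasl2* and *Ifih1* are known interferon-stimulated genes of antiviral defence, and *Irgm1* is an interferon-induced GTPase gene.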

How the data were processed

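Bulk RNA sequencing counts of 18 microglial and 13 hippocampal libraries were analyzed. The deposited values are raw read counts per gene, made by the authors on GRCm38 from libraries that the labels describe as a 3′-end kit, so levels were not compared between genes. The submitters' processing notes name edgeR and limma. The aligner and the counting of shared reads are not given in the sources used here. In R (v.4.3.3), counts were filtered with filterByExpr, scaled by TMM and tested with edgeR (v.4.0.16) glmQLFit and glmQLFTest, by group means within each experiment, with Benjamini-Hochberg adjustment over all tested genes. Calls required an adjusted p below 0.05 together with a log2 fold change above 1 in microglia or 0.5 in hippocampi, with no minimum size for interactions. CPM values use TMM-scaled library sizes, and log2 CPM a prior count of 2. At these depths, genes with a few counts were imprecise, and 3 counts were taken as the detection floor. The tests did not use this floor, and *Ifit1bl1* lay below it in *Cgas-/-* vehicle replicates 2 and 3. DESeq2 (v.1.42.0), other scaling, no filter, covariates and left-out libraries were alternatives. The script was tested on simulated data. Members and gene lists were chosen with earlier results of these data known. The text names the 5 members, *Ifit1bl2*, the interferon pathway genes (1 is not reported here and is left out of their counts), the feedback genes, up to 3 cap and 3 eIF3 genes by the largest tau difference in *Cgas+/+* cells, 5 protein-coding neighbours on each side and the 5 most alike genes per experiment, and the cell type marker lists by their sums. Single marker genes were named after their values were seen.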

Additional observations from a re-analysis of the deposited data

Results flagged for a closer look

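The response to tau differed between genotypes for every *Ifit* member on the log2 scale. The interaction, the log2 fold change in *Cgas-/-* minus that in *Cgas+/+* microglia, was 4.30 for *Ifit1*, 4.09 for *Ifit2*, 4.72 for *Ifit3*, 3.86 for *Ifit3b* and 3.42 for *Ifit1bl1*, each with an adjusted p under 0.05 by the edgeR quasi-likelihood test, as 3.61% of all tested genes had in this direction. The call of *Ifit1bl1* was lost when *Cgas-/-* vehicle replicate 1, 2 or 3 or *Cgas-/-* tau replicate 2 was left out (adjusted p = 0.0586 to 0.135). Every tau library was above every vehicle library in both genotypes, as for 21.7% of all tested genes in *Cgas+/+* and 17.4% in *Cgas-/-* cells, and the same responses measured in CPM were 7.61% to 22.2% as large in *Cgas-/-* as in *Cgas+/+* cells.

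The response to HT-DNA differed in the other direction for *Ifit2* (-2.24) and *Ifit3* (-1.63) by the same test, as for 16.6% of all tested genes. The call of *Ifit3* was lost when any 1 of the 3 *Cgas-/-* vehicle libraries, or *Cgas-/-* HT-DNA replicate 1 or 3, was left out (adjusted p = 0.0615 to 0.130). DESeq2 and the fit without a filter called all 5 members. The SEs of the fit without a filter lay below those of counting alone for the members with HT-DNA in *Cgas-/-* cells.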

How the results depend on the processing

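Calls of all 5 members with tau in either genotype, with HT-DNA in *Cgas+/+* cells, and between the genotypes under each treatment held under DESeq2, RLE scaling, no filter, fits of only the compared groups, the replicate block and each left-out library. Over the 709 alternative values of single members and their sums, 652 kept direction and side of the threshold, 17 newly passed, 40 no longer passed and none changed direction. In *Cgas-/-* cells with HT-DNA, 0 members were called, against 2 without the filter (*Ifit1* adjusted p = 8.25e-11, *Ifit3* adjusted p = 5.21e-07) and 1 with only the compared groups, where 3 members were tested (*Ifit1* adjusted p = 0.0350). The HT-DNA interaction called 2 members, against 5 with DESeq2, 5 without the filter and 1 to 3 with a library left out. In the fit without the filter, the SEs of the members with HT-DNA in *Cgas-/-* cells lay below those of counting alone. In hippocampi 3 members were called, against 0 with the homeostatic covariate, 0 to 4 with a mouse left out and 4 with DESeq2. With sex as a covariate *Ifit3* missed the threshold (2.18, adjusted p = 0.0607). The causes were not tested.

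With the replicate number as a block, 5 members were called with tau in either genotype, 5 with HT-DNA in *Cgas+/+* and 0 in *Cgas-/-* cells, and the tau and HT-DNA interactions called 5 and 2. The numbers did not pair the microglial libraries, since same-numbered libraries had deviations correlated at -0.0850 to 0.0823 over 45 pairs, and 5 of 18 libraries correlated best with their own number. No paired analysis was possible because the hippocampal groups share no replicate numbers. Summing *Ifit3* and *Ifit3b* before the fit, an alternative chosen after seeing the data, gave 1.58 with tau in *Cgas+/+* cells, 6.21 in *Cgas-/-* cells and 2.14 in *P301S* hippocampi (adjusted p = 0.0325, edgeR). At the depth of these libraries, *Ifit3b* and *Ifit1bl1* were limited by at most 16 and 11 counts in *Cgas-/-* cells without tau.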

Other observations

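The 2 closely related copies *Ifit3* and *Ifit3b* stood in different proportions in the 2 experiments. *Ifit3b* per 100 *Ifit3* counts ranged from 41.2 to 71.5 in the 7 Ntg hippocampi and from 47.7 to 66.7 in the 6 *P301S* hippocampi, against 13.3 to 15.4 in the 3 vehicle-treated and 16.2 to 18.9 in the 3 HT-DNA-treated *Cgas+/+* microglial cultures. The count tables of the experiments were made separately, and counting, tissue and age cannot be told apart.

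The make-up of the family's counts also differed. *Ifit1bl1* held 11.96% to 23.4% of the counts of the 5 members in Ntg hippocampi and 3.28% to 21.2% in *P301S* hippocampi, but 1.17% to 1.71% in vehicle-treated and 3.25% to 3.33% in HT-DNA-treated *Cgas+/+* microglia. The mean share of *Ifit2* was 47.1% with vehicle, 54.0% with tau and 53.1% with HT-DNA in *Cgas+/+* microglia. In *Cgas-/-* microglia it was 59.9% with vehicle, 61.4% with tau and 56.9% with HT-DNA. It was 34.2% in Ntg and 23.7% in *P301S* hippocampi. Shares of counts from 3′-end libraries do not compare transcript numbers between genes.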
